A study of Mus musculus with 36 samples.

Results

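Antiviral genes known as targets of type I interferon were followed in 3 brain regions of mice conditioned with modafinil, which keeps animals awake and inhibits dopamine reuptake. The 9 genes were Ifih1, Ifit1, Ifit2, Ifit3, Oasl2, Bst2, Ifitm3, Isg15 and Usp18. They were read from probe sets that the array annotation assigns to exactly 1 of these symbols, which 8 of the 9 genes had, each with 1 probe set, of 18193 genes and 45037 probe sets in all. Isg15 lay only on a probe set that also reads Gm9706, so no values are given for it. Each probe set of these Affymetrix mouse arrays is a group of short probes along 1 stretch of a transcript, and the arrays were hybridised with total RNA of male C57B1/6J mice of 20 to 26 g. All mice had gone through conditioned place preference, with an injection on each of days 3 to 10 and a test on day 11. In the modafinil groups the drug was given at 65 mg per kg on drug days, and saline on the alternating days. In the vehicle groups every injection was saline, so handling, injections and the test apparatus were common to all groups. Brains were taken 24 h after the last dose, and punches 1 mm wide were cut from slices of 100 µm through 3 regions: the VTA (ventral tegmental area, a site of dopamine neurons), the NAC (nucleus accumbens, their striatal target) and the PFC (prefrontal cortex). VTA and NAC each had 5 modafinil and 5 vehicle arrays, and PFC had 8 modafinil and 8 vehicle arrays. Separate mice for the arrays of a group are not stated in the labels. The p-values therefore cover only the spread between these samples, and the number of arrays limits the precision.

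Type I interferons bind a cell surface receptor whose signal reaches the interferon-stimulated response element in the promoters of antiviral genes. Type II interferon, which is interferon gamma, acts through a separate receptor and the gamma-activated sequence, and strongly induces guanylate-binding proteins such as Gbp2. The gene sets of both interferons overlap, since many of these antiviral genes also respond to interferon gamma and Gbp2 also responds to type I interferon.

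The promoter sequences are shown because the response element is the feature by which these genes are known to be induced. RefSeq windows from 250 bases before to 50 after the annotated start (mouse build GRCm38.p6) were found for 8 of the 9 genes. The letters GAAANNGAAA were searched on both strands for the interferon-stimulated response element. They were present in 6 of these 8 genes (Ifit1, Ifit3, Isg15, Bst2, Ifitm3 and Ifih1) and in Gbp2, while 3.44% of all 32851 windows held them. The stretches below hold every match of 5 of the genes and of Gbp2, printed 5′ to 3′ on the strand of the gene, with the matched letters in capitals. Each name carries its coordinates and strand. In Ifit1, Ifit3 and Gbp2 the match lies on the opposite strand and reads as its reverse complement. In Bst2 a pair of matches overlaps.
Ifit1 (chr19:34640769-34640828, plus strand): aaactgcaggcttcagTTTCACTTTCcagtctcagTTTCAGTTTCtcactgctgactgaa
Ifit3 (chr19:34583365-34583424, plus strand): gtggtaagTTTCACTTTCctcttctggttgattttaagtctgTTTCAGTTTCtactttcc
Bst2 (chr8:71537565-71537624, minus strand): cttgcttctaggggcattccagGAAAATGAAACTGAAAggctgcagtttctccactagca
Ifitm3 (chr7:141010715-141010744, minus strand): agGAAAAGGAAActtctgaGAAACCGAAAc
Ifih1 (chr2:62646206-62646235, minus strand): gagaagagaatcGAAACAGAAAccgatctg
Gbp2 (chr3:142620579-142620638, plus strand): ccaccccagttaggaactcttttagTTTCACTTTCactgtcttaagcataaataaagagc
Starts here are those of the window table, and that of Ifit3 lies inside the gene interval given below, so its stretch does too. Ifit1 and Ifit3 each carried 2 matches before that start, and the 2 matches of Ifitm3 and the 1 of Ifih1 lay just after it. The letters of the gamma-activated sequence, TTCNNNGAA, read the same on both strands. They were found in the windows of Ifit2, Bst2 and Ifitm3 but not of Gbp2, and in 8.3% of all windows. In Bst2 and Ifitm3 this match overlaps a match of the response element. A match is a run of letters and says nothing on binding in these tissues.

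The deposited values are on the log2 scale, and differences between them are log2 fold changes. Averaged over its group mates, the correlation of each array with them lay between 0.987 and 0.995. PFC arrays lay on a higher scale than the others (group medians of 7.23 to 7.25, against 6.78 to 6.86 in VTA and NAC), and their levels were not set against the other regions. A modafinil array stood apart in each region, with Gbp2 at the level of vehicle arrays: array 3 of VTA (5.92), array 4 of NAC (5.97) and array 6 of PFC (6.26). Markers of NAC neurons averaged 10.39 in modafinil PFC array 3, against 8.12 to 8.46 in the other modafinil PFC arrays and 8.16 to 8.42 in vehicle PFC arrays. Markers of VTA neurons averaged 7.56 to 9.09 in modafinil VTA arrays and 8.51 to 10.23 in vehicle VTA arrays. Markers of PFC neurons spread widely in NAC, from 7.29 to 9.44 in modafinil arrays and from 7.67 to 9.48 in vehicle arrays. Whether the content of the punches plays a part in the results below was not tested.

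Over all 36 arrays, with region as a factor, 5 antiviral genes rose after modafinil by 1.24-fold to 1.56-fold. The labels do not say whether arrays of different regions came from the same mice. This fit treats all arrays as separate samples, so its p-values may be too small. The sensor gene Ifih1 rose by 0.31 on the log2 scale (SE 0.068, limma adjusted p = 0.0172). Among effectors Ifit1 rose by 0.64 (SE 0.14, adjusted p = 0.0187), Ifit3 by 0.51 (SE 0.11, adjusted p = 0.0123), Bst2 by 0.45 (SE 0.094, adjusted p = 0.01) and Ifitm3 by 0.62 (SE 0.12, adjusted p = 0.0061). Ifit2 missed the threshold at 0.19 (SE 0.066, 95% interval 0.054 to 0.32, adjusted p = 0.154), and passed it with array quality weights (0.21, adjusted p = 0.0471). A level filter kept 6 of the 8 measured genes in this fit, and the 5 calls among them stand beside 0.444% of all 27022 probe sets tested that were called higher. Oasl2 and Usp18 were too dim for the filter. Without it, Oasl2 rose by 0.75 (SE 0.14, limma adjusted p = 0.00237) and Usp18 by 0.40 (SE 0.089, adjusted p = 0.0266), so that 7 of 8 genes were called, beside 0.357% of 45037 probe sets. At an unadjusted p under 0.05 all 6 filtered genes were higher, against 3.61% of the probe sets tested. The antiviral genes were chosen with earlier results of these data known. Counts of them beside such shares, here and below, are therefore a description. The median difference of the 8 genes was 0.48, against −0.0041 over all probe sets. Gbp2 rose in the same fit by 2.32 (SE 0.31, adjusted p = 4.2e-05), which is 4.99-fold. In punches of tissue, a change in the number of cells that carry a transcript and a change in RNA per cell cannot be told apart. Each of these 5 genes stayed under the threshold when any of the 36 arrays was left out, with adjusted p of at most 0.0373.

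**Figure D1:**
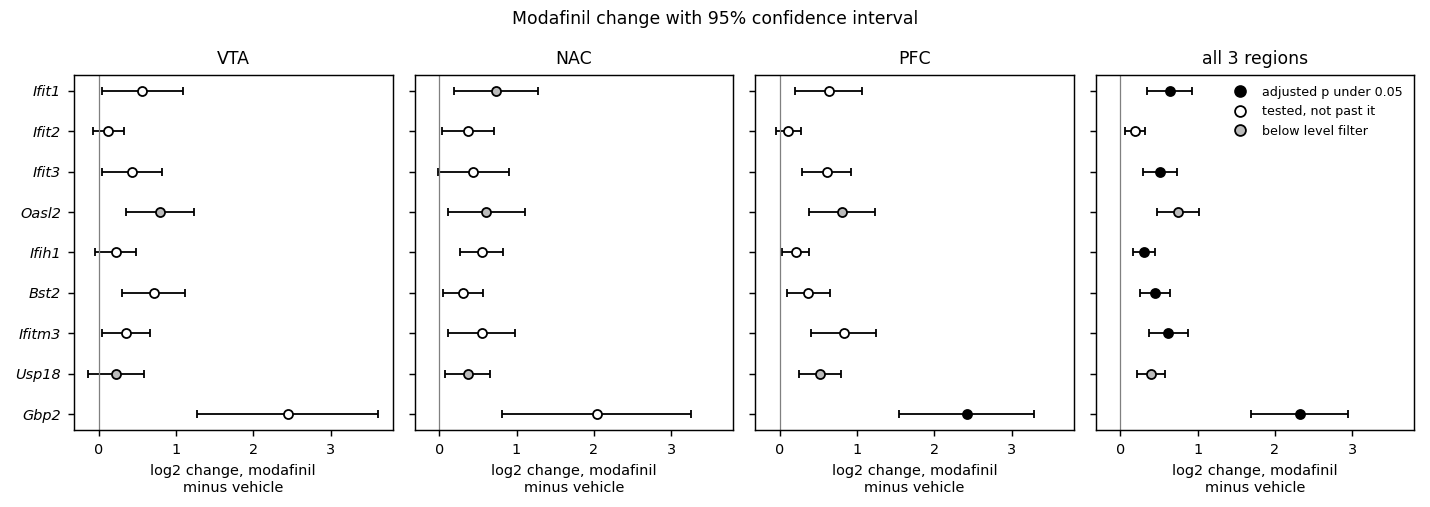
Modafinil minus vehicle difference (log2, x axis) of each antiviral gene and of Gbp2, with its 95% confidence interval, in VTA, NAC, PFC and over all 3 regions. Filled circles passed limma's adjusted p of 0.05, open circles were tested and did not, and grey circles were below the level filter; the antiviral genes lie between 0.11 and 0.82 within the regions and Gbp2 between 2.04 and 2.44.

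Ifih1 encodes MDA5, a cytosolic sensor of long double-stranded RNA that starts interferon production (chr2:62595618-62646255). In VTA its values were 7.37, 7.02, 6.78, 7.40 and 7.19 in modafinil arrays 1 to 5, against 7.01, 7.00, 7.14, 6.78 and 6.72 in vehicle arrays. Modafinil arrays 1, 4 and 5 lay above every vehicle array and array 3 among the lowest, so the groups overlapped. In NAC it had 7.25, 7.22, 7.18, 7.12 and 7.59 in modafinil arrays and 6.64, 7.02, 6.91, 6.71 and 6.34 in vehicle arrays. Here all 5 modafinil arrays were above the highest vehicle array, which held for 0.17% of the probe sets tested in NAC and for no other measured antiviral gene in any region. In PFC the lowest, median and highest values were 7.36, 7.85 and 8.10 in modafinil arrays and 7.49, 7.66 and 7.75 in vehicle arrays. Modafinil PFC array 3, in which NAC markers were high, was below all vehicle arrays, and the other 7 were above them all, arrays 1, 4 and 6 only barely. The differences were 0.22 (SE 0.12) in VTA, 0.55 (SE 0.13) in NAC and 0.21 (SE 0.083) in PFC, with limma adjusted p of 0.31, 1 and 0.37.

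Ifit1 (chr19:34640889-34650009) encodes a protein that binds viral RNA lacking the host cap methylation and blocks its translation. Its VTA values were 7.30, 6.97, 6.23, 7.58 and 7.33 in modafinil arrays and 6.26, 7.19, 6.52, 6.42 and 6.18 in vehicle arrays. Modafinil arrays 1, 4 and 5 were above the highest vehicle array, and array 3 was near the lowest. In NAC the modafinil arrays had 6.74, 6.77, 5.80, 5.36 and 6.83, against 5.48, 5.74, 5.54, 5.69 and 5.39 in vehicle arrays. Array 4 was below all vehicle arrays, array 3 barely above them, and arrays 1, 2 and 5 about 1 unit above the highest of them. In PFC the lowest, median and highest were 6.21, 7.53 and 7.94 in modafinil arrays and 6.33, 6.69 and 7.15 in vehicle arrays, so that modafinil PFC array 6 was below the whole vehicle group. The differences were 0.57 (SE 0.24) in VTA, 0.73 (SE 0.25) in NAC, where the gene was below the level filter, and 0.63 (SE 0.21) in PFC.

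Ifit3 (chr19:34583119-34588982) and Ifit2 (chr19:34550550-34576534) are neighbours of Ifit1 on chromosome 19, and their proteins form complexes with IFIT1. Ifit3 had 8.50, 8.47, 7.98, 8.95 and 8.36 in modafinil VTA arrays and 7.87, 8.28, 8.46, 7.63 and 7.86 in vehicle VTA arrays. Array 4 stood clear of the vehicle group, arrays 1 and 2 were just above its highest array, and arrays 3 and 5 lay within it. In NAC it had 7.94, 8.19, 7.42, 6.79 and 7.79 in modafinil arrays and 7.20, 7.15, 7.44, 7.11 and 7.01 in vehicle arrays. Array 4 was again the lowest of all 10, and arrays 1, 2 and 5 the highest. The lowest, median and highest PFC values were 8.09, 8.69 and 9.11 in modafinil arrays and 7.57, 8.01 and 8.39 in vehicle arrays, with 5 of 8 modafinil arrays above every vehicle array. Ifit3 differed by 0.43 (SE 0.18) in VTA, 0.44 (SE 0.21) in NAC and 0.61 (SE 0.15, limma adjusted p = 0.169) in PFC. The groups of Ifit2 overlapped in every region. Its range was 8.57 to 9.03 in modafinil and 8.49 to 8.77 in vehicle VTA arrays, 7.25 to 7.59 in modafinil and 6.55 to 7.60 in vehicle NAC arrays, and 8.42 to 8.93 in modafinil and 8.41 to 8.72 in vehicle PFC arrays. Of 18 modafinil arrays, 6 exceeded the highest vehicle array of their region for Ifit2, and 11 did so for Ifit3.

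Oasl2 (chr5:114896926-114912245) belongs to the oligoadenylate synthetase family, which makes the messenger that activates RNase L, and was below the level filter in every fit. In VTA it had 5.88, 5.36, 4.64, 5.92 and 5.52 in modafinil arrays and 4.61, 4.88, 4.40, 4.73 and 4.71 in vehicle arrays. All modafinil arrays but array 3 were above the vehicle group. In NAC the values were 5.60, 5.78, 4.45, 4.50 and 5.08 in modafinil arrays and 4.29, 4.31, 4.60, 4.58 and 4.60 in vehicle arrays. Arrays 1, 2 and 5 were above the vehicle group there, and arrays 3 and 4 within it. PFC arrays had a lowest, median and highest value of 4.36, 5.55 and 6.19 in modafinil arrays and 4.19, 4.62 and 5.13 in vehicle arrays, and 6 of 8 modafinil arrays were above every vehicle array. The differences were 0.80 (SE 0.20) in VTA, 0.61 (SE 0.23) in NAC and 0.80 (SE 0.21) in PFC.

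Bst2 (chr8:71534255-71537472) encodes tetherin, a membrane protein that holds budding virus particles on the cell surface. In VTA its values were 7.98, 7.55, 6.96, 8.09 and 7.60 in modafinil arrays and 6.80, 7.06, 7.13, 6.57 and 7.06 in vehicle arrays. All but array 3 were above the vehicle group, and the difference of 0.71 (SE 0.19, limma adjusted p = 0.0828) was the nearest to the threshold of any antiviral gene within a region. In NAC it had 7.50, 7.34, 7.16, 6.91 and 7.62 in modafinil arrays and 6.98, 7.01, 7.07, 6.92 and 7.01 in vehicle arrays. The vehicle arrays lay close together, 4 modafinil arrays were above them, and array 4 was just below. In PFC the lowest, median and highest were 7.42, 8.11 and 8.54 in modafinil arrays and 7.44, 7.60 and 7.75 in vehicle arrays, with 5 of 8 modafinil arrays above the vehicle group. The differences were 0.31 (SE 0.12) in NAC and 0.37 (SE 0.13) in PFC.

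Ifitm3 (chr7:141009590-141010744) encodes a membrane protein that blocks the fusion of entering viruses in endosomes. In VTA it had 9.28, 9.44, 8.52, 9.18 and 9.06 in modafinil arrays and 8.79, 8.86, 8.54, 8.74 and 8.76 in vehicle arrays. Array 3 was below every vehicle array and the other 4 modafinil arrays above them all. In NAC the values were 9.15, 9.04, 8.72, 8.29 and 9.68 in modafinil arrays and 8.28, 8.42, 8.66, 8.41 and 8.35 in vehicle arrays. Array 4 lay within the vehicle group and array 3 barely above it, and arrays 1, 2 and 5 were well above. The lowest, median and highest PFC values were 8.53, 9.52 and 9.96 in modafinil arrays and 7.93, 8.48 and 9.03 in vehicle arrays, with 6 of 8 modafinil arrays above the vehicle group. The differences were 0.36 (SE 0.14) in VTA, 0.55 (SE 0.20) in NAC and 0.82 (SE 0.20, limma adjusted p = 0.16) in PFC.

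Usp18 (chr6:121245906-121270917) encodes the protease that removes the ubiquitin-like protein ISG15 from its targets and that also dampens type I interferon receptor signalling. Its values were low, 5.84 to 6.81 in modafinil and 5.79 to 6.37 in vehicle VTA arrays, 5.45 to 6.08 in modafinil and 5.06 to 5.55 in vehicle NAC arrays, and 6.01 to 6.97 in modafinil and 5.81 to 6.39 in vehicle PFC arrays. The groups overlapped in all 3 regions, and 8 of 18 modafinil arrays were above the highest vehicle array of their region. The differences were 0.23 (SE 0.17) in VTA, 0.37 (SE 0.13) in NAC and 0.52 (SE 0.13) in PFC.

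**Figure D2:**
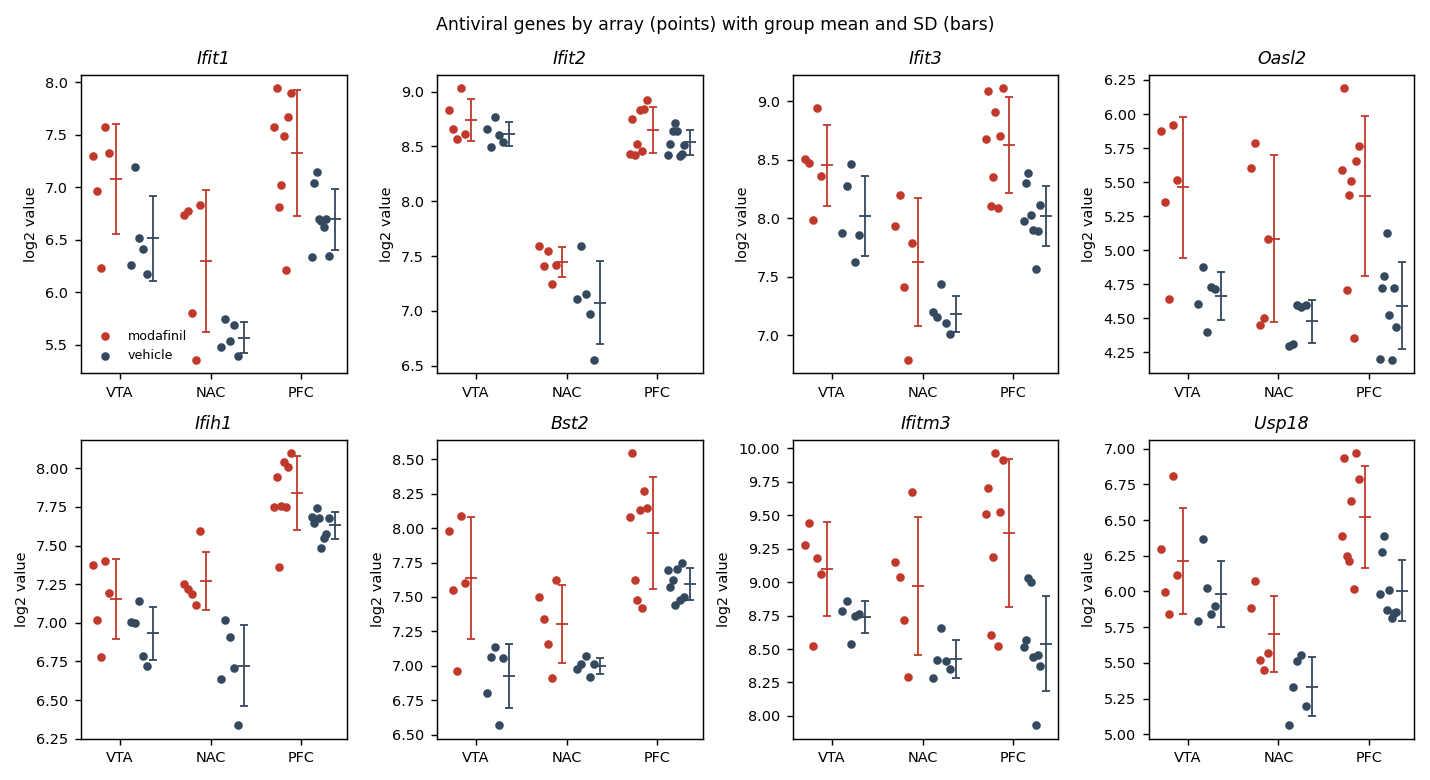
Log2 value (y axis) of the 8 measured antiviral genes in each array, modafinil in red left of vehicle in dark blue, for VTA, NAC and PFC; bars give the group mean and SD (n = 5, 5 and 8 arrays a group). For Ifih1 all 5 modafinil NAC arrays lie above the vehicle arrays, while for Ifit2 none of the 5 does.

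Within single regions no antiviral gene passed the adjusted threshold. In VTA 0 of 6 tested genes were called, beside 0.189% of all probe sets called higher. At an unadjusted p under 0.05 limma found 4 of the 6 higher in VTA (Bst2, Ifit1, Ifit3 and Ifitm3), against 6.84% of all, and none had groups without overlap, against 1.81%. In NAC 0 of 5 were called and 0% of all probe sets were. Bst2, Ifih1, Ifit2 and Ifitm3 were higher there at an unadjusted p under 0.05, which is 4 of 5 beside 1.14% of all. In PFC 0 of 6 were called, beside 0.0444% of all, and 5 of 6 were higher at an unadjusted p under 0.05 (all but Ifit2), beside 3.63%. Groups without overlap in PFC were found for 0 of 6 genes and 0.0185% of all probe sets. The median difference over all 8 measured genes was 0.39 in VTA, 0.50 in NAC and 0.56 in PFC, against −0.0099, −0.0086 and −0.00091 over all probe sets, and each of the 8 was positive in each region. In VTA 8 of 9 VTA neuron markers tested were lower at an unadjusted p under 0.05, beside 14.2% of all probe sets, and 0 passed limma's adjusted threshold, and their part in the VTA differences was not tested. Leaving out modafinil VTA array 3 made Bst2 (0.88, limma adjusted p = 0.0265) and Ifitm3 (0.50, adjusted p = 0.0397) pass in VTA. Leaving out modafinil PFC array 6 made Ifitm3 pass in PFC (0.94, adjusted p = 0.0379). Without these arrays, limma called 112 of 27022 probe sets higher in VTA, against 51 with all arrays, and 54 in PFC, against 12. Both arrays had Gbp2 and the median antiviral gene near the vehicle mean, so leaving them out raises the differences by itself. The added calls are a description. Without modafinil PFC array 3 the PFC difference of Ifih1 was 0.28 (adjusted p = 0.0959), and no antiviral gene passed in NAC without modafinil NAC array 4.

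The modafinil differences were compared between regions by interaction contrasts over the 36 arrays. None of the 6 tested antiviral genes was called between VTA and NAC, where 0.274% of all probe sets were called at the adjusted and 11.2% at the unadjusted threshold. None was called between PFC and VTA (0.903% and 12.1% of all), and none between PFC and NAC (0% and 4.91%). At an unadjusted p under 0.05 the PFC minus NAC contrast singled out Ifih1, by −0.34 (95% interval −0.66 to −0.020, limma adjusted p = 0.914). For Bst2 the VTA minus NAC contrast was 0.40 (95% interval −0.099 to 0.91), and for Ifitm3 the PFC minus VTA contrast was 0.47 (95% interval −0.14 to 1.07). Intervals of this width do not show that the regions changed alike.

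Levels of some antiviral genes differed between NAC and VTA in vehicle arrays, as did those of many other probe sets. Ifit2 was lower in NAC by 1.54 on the log2 scale (7.08 ± 0.37 in NAC and 8.61 ± 0.11 in VTA, mean ± SD, n = 5 each; SE 0.13, limma adjusted p = 3.89e-09). Ifit3 was lower by 0.84 (7.18 ± 0.16 in NAC and 8.02 ± 0.34 in VTA; SE 0.15, adjusted p = 8.87e-05). These were 2 of 5 genes tested, in a contrast that called 28.8% of all probe sets lower and 30.3% higher in NAC. Without the level filter Ifit1 (5.57 ± 0.15 in NAC and 6.51 ± 0.40 in VTA) and Usp18 (5.33 ± 0.21 in NAC and 5.98 ± 0.23 in VTA) were also called lower, making 4 of 8 beside 25.1% of all. With differences this common, the counts show nothing particular to the antiviral genes. Ifitm3 at −0.31 (SE 0.15, adjusted p = 0.0767), Ifih1 at −0.21 (SE 0.10, adjusted p = 0.0895), Oasl2 at −0.19 (SE 0.14) and Bst2 at 0.07 (SE 0.090) did not pass. The 95% interval of Ifitm3 was −0.63 to −0.0025, and after quantile normalization Ifitm3 (adjusted p = 0.0455) and Ifih1 (adjusted p = 0.0261) were called lower too. In vehicle PFC arrays, on their own scale, Ifit2 had 8.54 ± 0.12, Ifit3 8.02 ± 0.26, Ifit1 6.70 ± 0.29 and Usp18 6.01 ± 0.21 (SD, n = 8).

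Each gene was then set against Gbp2 in the same array. Gbp2, a guanylate-binding protein, was taken as the marker of interferon gamma with its large change already known. Its values were 9.29, 9.28, 5.92, 9.02 and 9.29 in modafinil VTA arrays and 5.99, 6.36, 6.20, 5.96 and 6.06 in vehicle VTA arrays. In NAC they were 9.41, 8.86, 6.72, 5.97 and 8.99 in modafinil arrays and 5.79, 6.10, 6.16, 5.91 and 5.81 in vehicle arrays. PFC arrays had a lowest, median and highest value of 6.26, 9.33 and 10.16 in modafinil arrays and 5.90, 6.40 and 6.83 in vehicle arrays. So 13 of 18 modafinil arrays had Gbp2 far above vehicle, by 2.53 to 3.78 over the vehicle mean, 2 were in between (NAC array 3 by 0.77 and PFC array 3 by 0.93), and 3 were at vehicle level.

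By their median, the antiviral genes followed the same arrays at a smaller size. In the 3 arrays with Gbp2 at vehicle level the median deviation of the 8 genes from the vehicle mean was −0.09 in VTA array 3, −0.03 in NAC array 4 and −0.05 in PFC array 6. It was 0.23 in NAC array 3 and 0.07 in PFC array 3. In the 13 other modafinil arrays it was between 0.27 (PFC array 4) and 1.01 (PFC array 2), the array with the highest Gbp2. All 8 genes were above every vehicle array in modafinil PFC arrays 2, 5, 7 and 8 and in VTA array 4, and none was in VTA array 3 or PFC array 3. The share of all probe sets above every vehicle array was not computed for single arrays. Nothing particular to these genes can therefore be read from these counts. Single genes departed from this in NAC array 4, where Gbp2 was 0.01 above the vehicle mean, Ifih1 0.39 above it and Ifit3 at −0.39. Others did so in arrays with high Gbp2. In PFC array 4, with Gbp2 up by 2.90, Bst2 was at −0.115 and Ifit2 at −0.013. Ifit2 was at −0.10 in PFC array 1, and in VTA array 2 Ifit2 was at 0.04 and Usp18 at 0.01.

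**Figure D3:**
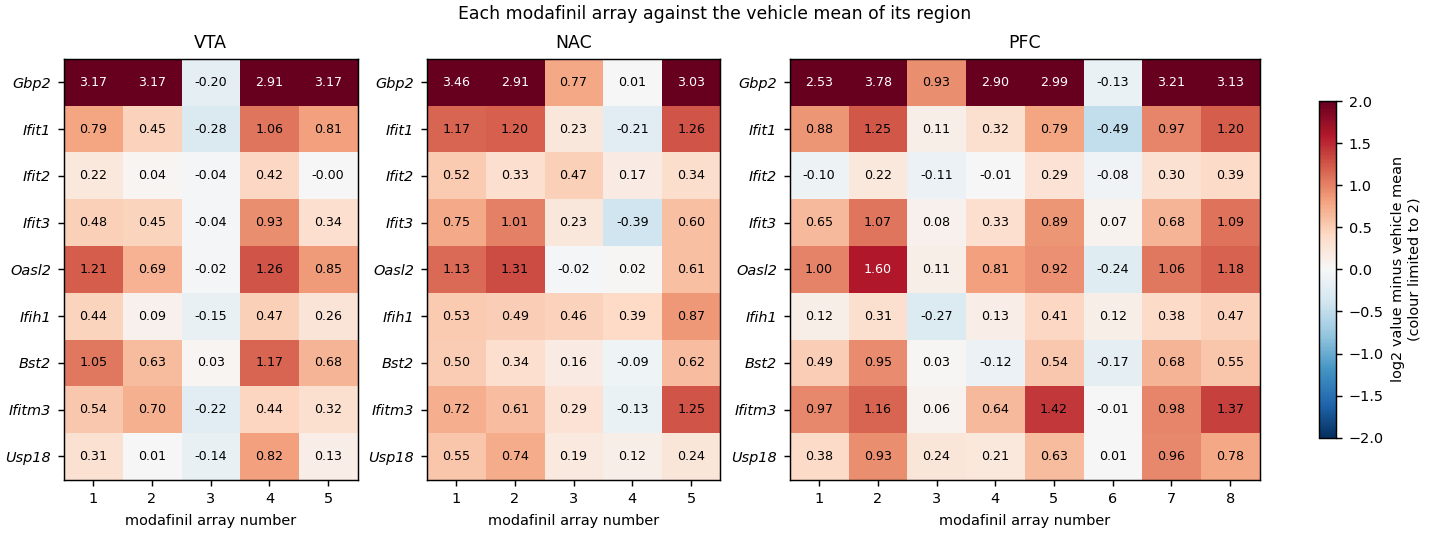
Value of Gbp2 and of the 8 antiviral genes (rows) in each modafinil array (columns, numbered within VTA, NAC and PFC) minus the vehicle mean of its region, on the log2 scale, printed in each cell; the colours stop at 2 in either direction. Gbp2 is near 0 in VTA array 3, NAC array 4 and PFC array 6, where the antiviral genes lie between −0.49 and 0.39.

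Slopes of each gene on the Gbp2 of the same array, with treatment as a factor, passed the threshold in PFC for 2 effectors. Ifit1 increased by 0.44 per unit of Gbp2 (SE 0.056, limma adjusted p = 0.000454) and Ifitm3 by 0.39 (SE 0.071, adjusted p = 0.0215), both on the log2 scale. Those were 2 of 6 genes tested in PFC, beside 0.222% of all probe sets with a rising slope, and all 6 had one at an unadjusted p under 0.05, beside 2.63%. Without the filter Oasl2 (0.45, SE 0.051, adjusted p = 0.000108) brought the calls to 3 of 8, beside 0.173% of all. Slopes in PFC that did not pass were 0.27 for Ifit3 (SE 0.059, adjusted p = 0.0952), 0.23 for Bst2, 0.23 for Usp18, 0.12 for Ifih1 and 0.12 for Ifit2. In NAC 0 of 5 passed, beside 0.174% of all, and 3 of 5 (Bst2, Ifit3 and Ifitm3) had an unadjusted p under 0.05, beside 9.09%. Without the filter the NAC slope of Ifit1, 0.43 (SE 0.043, adjusted p = 0.000789), was the 1 call of 8, beside 0.14% of all. In VTA 0 of 6 passed, beside 0.0925% of all, and 4 of 6 (Bst2, Ifih1, Ifit1 and Ifitm3) had an unadjusted p under 0.05, beside 0.888%. Since 4 of the 5 modafinil VTA arrays had nearly the same Gbp2, the VTA slopes lean on array 3. Without it they were 0.98 for Ifit1, 0.54 for Ifit3, 0.24 for Bst2, 0.12 for Ifitm3, 0.10 for Ifih1 and −0.51 for Ifit2, and with it 0.33, 0.18, 0.26, 0.22, 0.14 and 0.054 in the same order. The Ifitm3 slope in PFC did not pass without modafinil PFC array 2, 3, 6 or 8, with adjusted p of 0.0519, 0.161, 0.0555 and 0.0516, and Ifih1 passed without array 6 (0.23, adjusted p = 0.037).

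Some lists of cell markers also moved with Gbp2 in NAC and PFC, and others did not. In NAC the slopes of NAC neuron markers were positive for 8 of 8 tested, all 8 at an unadjusted p under 0.05 (median 0.32, against 0.17 for the 5 antiviral genes tested), and those of PFC neuron markers for 0 of 9 (median −0.19). Of NAC microglia markers 7 of 8 slopes were positive, 4 of them at an unadjusted p under 0.05 (median 0.092), and of leukocyte markers 5 of 5, with 2 (median 0.11). NAC astrocyte markers had 4 of 10 positive slopes, 0 at that p, oligodendrocyte markers 6 of 9, with 0, and endothelial and mural markers 6 of 8, with 1. In PFC microglia markers had 8 of 8 positive slopes, 6 at an unadjusted p under 0.05 (median 0.087), endothelial and mural markers 9 of 9, with 2 (median 0.087), astrocyte markers 9 of 10, with 3 (median 0.077), and meningeal markers 7 of 7, with 0 (median 0.26), against 0.25 for the 6 antiviral genes tested. Positive slopes in PFC were found for 0 of 6 NAC neuron markers (median −0.25) and 0 of 9 oligodendrocyte markers (median −0.10). They were found for 2 of 5 leukocyte markers (median −0.018) and 3 of 9 PFC neuron markers (median −0.026). Over all probe sets tested, 46.8% of slopes were positive in NAC and 34.6% in PFC. Those positive at an unadjusted p under 0.05 in limma made up 9.09% in NAC and 2.63% in PFC. In VTA 1 of 8 microglia markers had a positive slope at that p, beside 0.888% of all, and no marker of the other cell lists did. None of these markers passed limma's adjusted threshold, and their part in the slopes of the antiviral genes was not tested.

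**Figure D4:**
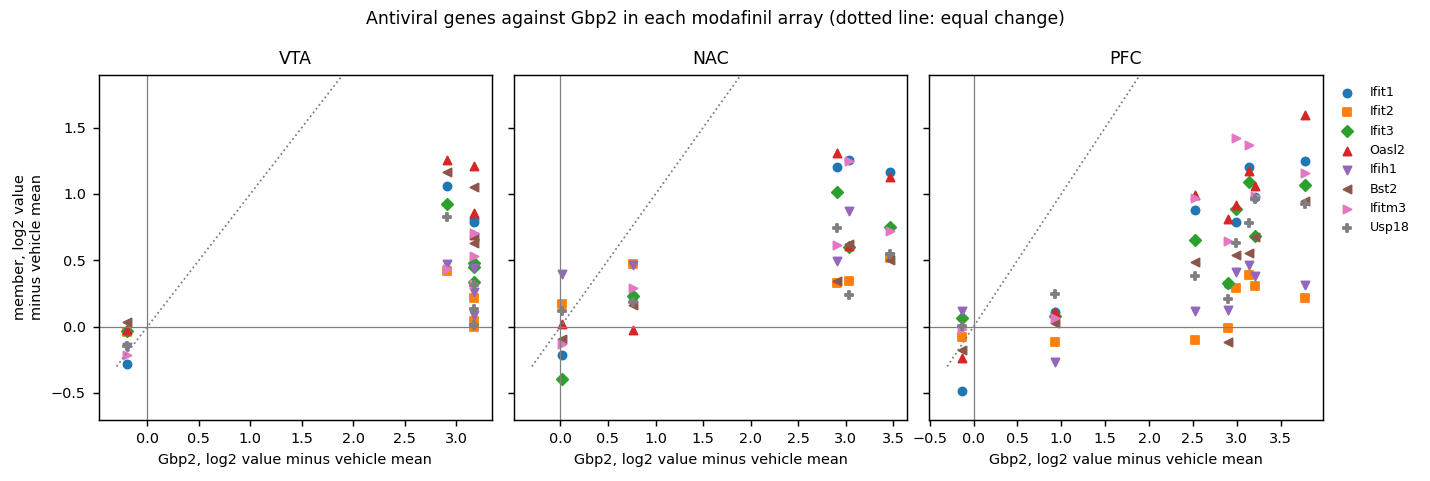
Each antiviral gene (symbols, y axis) against Gbp2 (x axis) in every modafinil array, both as log2 value minus the vehicle mean of VTA, NAC or PFC; the dotted line marks an equal change. In the arrays with Gbp2 up by 2.53 or more the antiviral genes reach from −0.12 to 1.60, each less than Gbp2 in its array. The drawn line ends before these points.

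Relative to Gbp2 of the same array, all 8 antiviral genes were lower in modafinil than in vehicle arrays. VTA differences ran from −2.32 to −1.65, those of NAC from −1.73 to −1.31 and those of PFC from −2.31 to −1.59. The unadjusted exact permutation p, with both sides counted, ran from 0.0238 to 0.0476 for VTA, from 0.00794 to 0.0952 for NAC, and from 0.000155 to 0.00124 for PFC (24 tests). Here the smallest p that the designs allow is 0.00794 with 5 arrays a group and 0.000155 with 8. In limma 6 of 6 tested genes were called lower relative to Gbp2 in VTA, 5 of 5 in NAC and 6 of 6 in PFC, but so were 99.7%, 99.9% and 100% of all probe sets. Nothing particular to these genes can be read from those shares or from the permutation p-values. Both carry the change of Gbp2 itself, which was known when Gbp2 was chosen.

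Further genes of the pathway were taken from lists written with the general pattern known, and their differences over the 36 arrays are given. The counts of called genes stand beside 0.444% of all probe sets tested that were called higher and 0.396% called lower. Of type I interferon ligands and receptor chains, 3 of 9 with a probe set were bright enough to test and 0 were called: Ifnar1 at −0.08, Ifnar2 at 0.02 and Ifna1 at 0.12. The ligand genes Ifnb1 and Ifng were below the level filter. Ifnb1 averaged 5.32 ± 0.39 in modafinil and 5.25 ± 0.43 in vehicle arrays, and Ifng, the gene of interferon gamma, 2.90 ± 0.21 in modafinil and 2.88 ± 0.18 in vehicle arrays (SD, n = 18 each, regions pooled). Ifna4, an interferon alpha gene equally below the filter, averaged 4.90 ± 0.26 in modafinil and 4.67 ± 0.25 in vehicle arrays. Its difference was 0.22 (SE 0.064, limma adjusted p = 0.102 without the filter). The pooled SDs also hold differences between regions. Within a region and treatment the SD was 0.10 to 0.21 for Ifnb1 and 0.06 to 0.16 for Ifng. Ifng lay near the lowest values of the arrays. Its group means were 2.71 to 2.81 for VTA and NAC and 3.04 to 3.11 for PFC. The lowest percentile of all values ended at 2.64 to 2.65 in the former and 3.01 to 3.02 in the latter. At that level a change of Ifng could go unseen. For Ifna4 the difference was 0.41 in VTA (SE 0.077, limma adjusted p = 0.0773), 0.024 in NAC and 0.24 in PFC (adjusted p = 0.338). The difference over the regions was 0.18 for Ifna11 (adjusted p = 0.314), 0.07 for Ifnab, 0.06 for Ifna2 and 0.01 for Ifna5, all below the filter. Among signal transducers 3 of 6 rose: Irf7, a transcription factor that amplifies interferon production, by 0.41 (SE 0.080, limma adjusted p = 0.00411), Stat2 by 0.25 (SE 0.052, adjusted p = 0.00911) and Irf9 by 0.18 (SE 0.045, adjusted p = 0.0379). Irf3 at −0.0079 and Jak1 at −0.05 did not pass. Within regions Stat2 was called in VTA (0.47, SE 0.075, adjusted p = 0.0454) and Irf7 in PFC (0.43, SE 0.071, adjusted p = 0.0297). Of all probe sets 0.189% were called higher in VTA and 0.0444% in PFC.

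Of other antiviral effectors 7 of 20 tested rose, none fell, and the list median was 0.25, against −0.027 over all probe sets tested. For this and the lists below, 0.444% of all probe sets tested were called higher and 0.396% lower. The called genes were Parp14 (0.64, SE 0.12, limma adjusted p = 0.00263), Rtp4 (0.64, SE 0.11, adjusted p = 0.000574), Ifi35 (0.52), Trim30a (0.51), Rsad2 (0.43), Xaf1 (0.36) and Oas1a (0.28). Rsad2 encodes viperin, which makes a chain-terminating nucleotide, and Oas1a an oligoadenylate synthetase. Adar at −0.04 and Trim25 at −0.07 did not pass. Of nucleic acid sensing genes 1 of 9 rose, Zbp1, a sensor of left-handed RNA and DNA, by 0.43 (SE 0.087, limma adjusted p = 0.00626), while Sting1 was at 0.15 and Tlr3 at −0.14. Among ISG15 conjugation genes 0 of 3 were called, with Uba7, the activating enzyme, at 0.13 (adjusted p = 0.33), Herc6 at 0.01 and Trim25 again at −0.07. The type II list was chosen for its known change in these arrays and is a description: 8 of 10 tested were called, from Irf1 at 0.41 to Iigp1 at 2.31 and Gbp2 at 2.32, with a median of 1.40. Ifngr1 and Ifngr2, the receptor of interferon gamma, were at −0.0069 and −0.06.

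**Figure D5:**
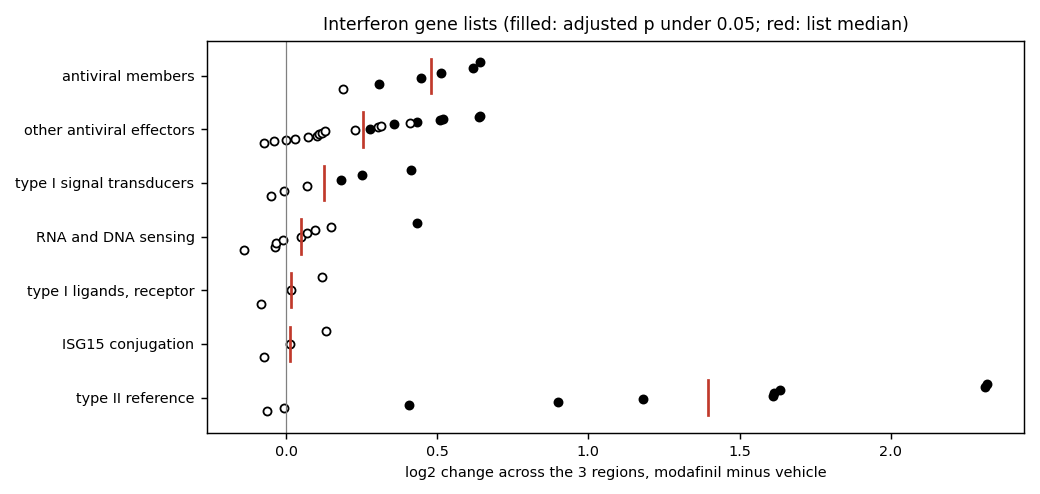
Modafinil minus vehicle difference over the 3 regions (log2, x axis) of each tested gene of the antiviral genes and of the 6 further interferon lists (rows); filled points passed limma's adjusted p of 0.05 and the red line is the list median. The type II list reaches 2.32 with a median of 1.40, and no other list exceeds 0.64.

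Across the 36 arrays, as deviations from the mean of each array group, the 28 pairs of antiviral genes had Pearson correlations of 0.35 to 0.84 with a median of 0.68. With Gbp2 the correlation was 0.88 for Ifit1, 0.87 for Oasl2, 0.80 for Ifitm3, 0.76 for Bst2, 0.75 for Ifit3, 0.62 for Usp18, 0.57 for Ifih1 and 0.41 for Ifit2. The genes most like the mean of the antiviral genes, of 18185 compared, were Rtp4 (r = 0.91), Tmem140 (0.89), B2m (0.88), Gbp3 (0.88) and Rnf213 (0.87), and Gbp2 (0.85) had rank 14 outside the antiviral genes. B2m encodes the light chain of class I antigen presentation molecules. These values describe arrays that share RNA, region and dissection, and carry no test.

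Of markers of cell types that the punches could hold, tested over the 36 arrays, limma called 0 of 8 for microglia, 0 of 8 for endothelial and mural cells, 0 of 5 for leukocytes, 0 of 6 for meninges and 0 of 9 for oligodendrocytes. In limma at an unadjusted p under 0.05, 1 microglia marker and 2 oligodendrocyte markers were higher, against 3.61% of all probe sets. At that p 2 endothelial or mural markers and 2 of 10 astrocyte markers were lower, against 13.0% of all. So were 4 of 6 VTA neuron markers (list median −0.42), while 1 of 9 PFC neuron markers was higher. Of 8 NAC neuron markers 0 were higher and 0 lower at that p. No neuron marker of these lists passed limma's adjusted threshold in this fit. The astrocyte marker Sox9 passed limma's adjusted threshold, lower by 0.25 on the log2 scale (SE 0.050, adjusted p = 0.00486), as did 0.396% of all probe sets. The mean level of 9 microglia markers was 8.16 to 8.35 in modafinil and 8.04 to 8.25 in vehicle VTA arrays, 8.51 to 8.89 in modafinil and 8.60 to 8.81 in vehicle NAC arrays, and 8.80 to 9.24 in modafinil and 8.80 to 9.07 in vehicle PFC arrays. That of 11 leukocyte markers was 5.59 to 5.90 in modafinil and 5.55 to 5.62 in vehicle VTA arrays, 5.62 to 5.98 in modafinil and 5.61 to 5.90 in vehicle NAC arrays, and 6.22 to 6.50 in modafinil and 6.17 to 6.28 in vehicle PFC arrays. Array values have no zero, so the absence of a cell type cannot be read from them.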

How the data were processed

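The deposited log2 values of 36 arrays were used as they stand. The authors computed them with RMA, per the submitters' processing notes, whose version the sources used here do not give. For VTA and NAC the RNA of 2 pieces of tissue went into a pool if its integrity number was above 7, per the labels' protocols. Scan dates and raw intensities were not analysed here. Of 45101 probe sets 64 were controls, 34945 had 1 symbol, 932 several and 9160 none. Gene coordinates are from RefSeq (GRCm38.p6).

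The antiviral genes and all lists were chosen with earlier results of these data known. Each gene was read from its probe set with the highest mean. limma 3.58.1 in R 4.3.3 (lmFit, eBayes) was run on probe sets at or above the 40th percentile of the mean of each fit, with Benjamini-Hochberg adjustment over all of them and a threshold of 0.05. It was checked on simulated arrays. Genes named outside the antiviral genes were Gbp2, up to 2 per direction and interferon list by smallest p in each comparison, and the 5 most alike genes. Trim30a, Rsad2, Oas1a, Irf1, Iigp1, Sox9 and the interferon genes below the filter fall outside that rule and were chosen after their values were seen. The fits relative to Gbp2 share its values, so eBayes took a common variance for all probe sets (residual df 8, 8 and 14) and their p-values are too small.

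Alternatives were no filter and a stricter one, quantile normalization, array weights, a trended and robust variance, 1 probe set per gene, all arrays in 1 fit, the replicate block, the other Gbp2 probe set, and leaving out each array.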

Additional observations from a re-analysis of the deposited data

Results flagged for a closer look

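Ifih1 in modafinil NAC array 5 was 7.59, with the nearest other modafinil NAC array at 7.25, a gap of 0.72 of the group's range. Ifih1 in modafinil PFC array 3 was 7.36, with the nearest other modafinil PFC array at 7.75, a gap of 0.53 of the range. In that array the NAC neuron markers averaged 10.39, and whether this plays a part was not tested. Both passed Dixon's critical value, which chance passes in about 1 in 20 groups, and 48 groups were checked.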

How the results depend on the processing

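Counts are of antiviral genes past limma's adjusted threshold. Outside the fits that leave out an array, 63 such counts held to within 1.5 times and 9 moved. With all 36 arrays in 1 fit, 1 gene passed in VTA (Bst2, adjusted p = 0.0175). With the filter at the 60th percentile, 2 passed across regions, since fewer genes were tested. The NAC and VTA levels gave 4 without the filter and 4 after quantile normalization. Slopes on Gbp2 in NAC gave 1 without the filter, 1 after quantile normalization and 1 with modafinil arrays only. Those in PFC gave 1 without the 2 arrays farthest from the median Gbp2 and 1 with modafinil arrays only. Fits of modafinil arrays only and of the other Gbp2 probe set were chosen after seeing the data. Apart from the filters, the causes of these moves were not tested. Among single genes 377 values kept direction and call, 6 gained a call, 2 lost it and 0 turned direction.

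Deviations of same-numbered modafinil and vehicle arrays had correlations of −0.52 to 0.16 in NAC, −0.22 to 0.26 in PFC and −0.18 to 0.20 in VTA. Arrays of different numbers were not compared in this way. Whether the numbers pair the treatments therefore cannot be read from these values. Same-numbered arrays of different regions had correlations of −0.12 to 0.32, over 0.1 in some pairs and not in others. Whether they came from 1 mouse is not stated, and the p-values over the 36 arrays treat them as separate samples. With the replicate number as a block, 5 genes passed across regions, 0 in VTA, 0 in NAC, 0 in PFC, 0 in each contrast between regions and 2 for the NAC and VTA levels, as without it. Over all probe sets the block left 0 calls in VTA and 0 in PFC. No label ties the number to a mouse, so the block cannot tell whether arrays of different regions depend on each other.

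Leaving out each array in turn, 5 genes always passed across regions, 0 to 2 in VTA, 0 in NAC and 0 to 1 in PFC. The levels gave 2 to 3. Slopes gave 0 in VTA, 0 to 1 in NAC (1 without vehicle NAC array 2) and 1 to 4 in PFC (4 without modafinil PFC array 4). Relative to Gbp2, 1 to 5 passed in NAC (1 without modafinil NAC array 1) and 6 in VTA and PFC. Small differences turned direction. VTA minus NAC ran from −0.22 to 0.13 for Ifit3 and from −0.40 to 0.051 for Ifit1. PFC minus VTA ran from −0.058 to 0.058 for Ifit2, from −0.11 to 0.055 for Ifih1 and from −0.15 to 0.22 for Ifit1. PFC minus NAC ran from −0.040 to 0.14 for Bst2, from −0.043 to 0.31 for Ifit3 and from −0.33 to 0.061 for Ifit1. The NAC minus VTA level of Bst2 ran from −0.016 to 0.12 and the VTA slope of Ifit2 from −0.51 to 0.072. Causes were not tested. Signal over background was not analysed here, so the precision of dim probe sets such as Oasl2 and Usp18 is limited.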
